A study of Mus musculus with 14 samples.

Results

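Chemokines and their receptors were examined in the livers of male mice fed a Western diet with or without erythrodiol, a triterpene alcohol of the olive. The set held every gene of the deposited expression table whose symbol begins with Ccl, Ccr, Cxcl, Cxcr, Cx3cl, Cx3cr, Xcl, Xcr or Ackr followed by a digit. It came to 58 of the 17552 genes in the table, of which 57 are described, 35 ligands and 22 receptors. Of these receptors, 18 were typical signalling receptors and 4 were atypical chemokine receptors (Ackr).

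All mice were male, of the C57BL/6 strain, Apoe-deficient and 8 weeks of age by the labels. The control group ate the Western diet, a purified diet with cholesterol and palm oil, and the erythrodiol group ate it with erythrodiol added to reach 10 mg/kg. The labels give 8 weeks of feeding, whereas the methods of the study give a longer period. The labelled age equals the labelled feeding period, so it is read as the age at the start of the diet, not at sampling. Each group comprised 7 libraries of polyadenylated liver RNA, and each library was a pool of RNA from a few animals. Loss of apolipoprotein E raises plasma cholesterol, so the controls too carried a deletion that alters lipid transport. The Apoe gene itself had 9403 counts in the control pool and 8293 in the erythrodiol pool, and which stretch of it the deletion removes is not given in the sources used here, so this was no check of the genotype. The paper reports a check of its own by RT-PCR, in which Apoe-deficient mice showed no hepatic Apoe expression. Why the counts differ from that result was not tested.

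Chemokines are small secreted proteins that direct the migration of leukocytes along concentration gradients, and they are classed by the spacing of the cysteines near their amino end as CC, CXC, CX3C or XC. Their receptors span the membrane repeatedly and signal through inhibitory G proteins, whereas atypical receptors bind chemokines without that signal and serve to remove or to move them. In the liver, Kupffer cells, which are the resident macrophages, as well as sinusoidal endothelial cells, stellate cells and hepatocytes can release chemokines that draw in monocytes, neutrophils and lymphocytes.

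For each gene the authors deposited an expected count summed over the 7 libraries of a group, so that every member has 2 pooled values, 1 for the control and 1 for erythrodiol, and no value per library. The sums over all genes were 122889032 in the control and 124686047 with erythrodiol. Control libraries held from 34856340 to 55244294 clean reads and gave from 9.12% to 17.3% of their pool, whereas erythrodiol libraries held from 47669656 to 48058606 and gave from 13.9% to 14.6% of theirs. With 1 value per group there is no replicate check of any difference and no test was possible. Ratios below are erythrodiol over control after scaling each group by its total, and their 95% intervals (Clopper-Pearson) cover counting error only, not the spread between mice. Hepatocyte markers were present at high levels, with Alb, which encodes albumin, at 63753 transcripts per 1000000 (TPM, a level per length) in the control and 68184 with erythrodiol.

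Most chemokine genes had lower values with erythrodiol than in the control, more so among ligands than among receptors, and the most abundant ligand, Cxcl12, went the other way. Of the 46 members with 20 or more counts over both groups, 34 had a ratio below 1, against 31% of all genes with as many counts. They comprised 25 of 29 ligands and 9 of 17 receptors. These counts depended on the scaling and on gene length. When the groups were scaled by their sums of counts per length, as in TPM, 23 of 46 members lay below 1, against 19.3% of all genes. When they were scaled to the median gene 38 did, against 51.1%. Ligands are short, with a median length of 995 bases, and shorter genes had lower ratios among all genes. The median of genes of like length splits the genes that define it evenly, and below it lay 21 of 29 ligands and 11 of 17 receptors. The median log2 ratio was -0.32 over ligands and -0.04 over receptors, whereas it was 0.15 over the 14867 genes with at least 20 counts and 0.16 over the 13291 with at least 100. These are bulk livers, in which fewer cells of a type and less RNA per cell cannot be told apart.

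**Figure D1:**
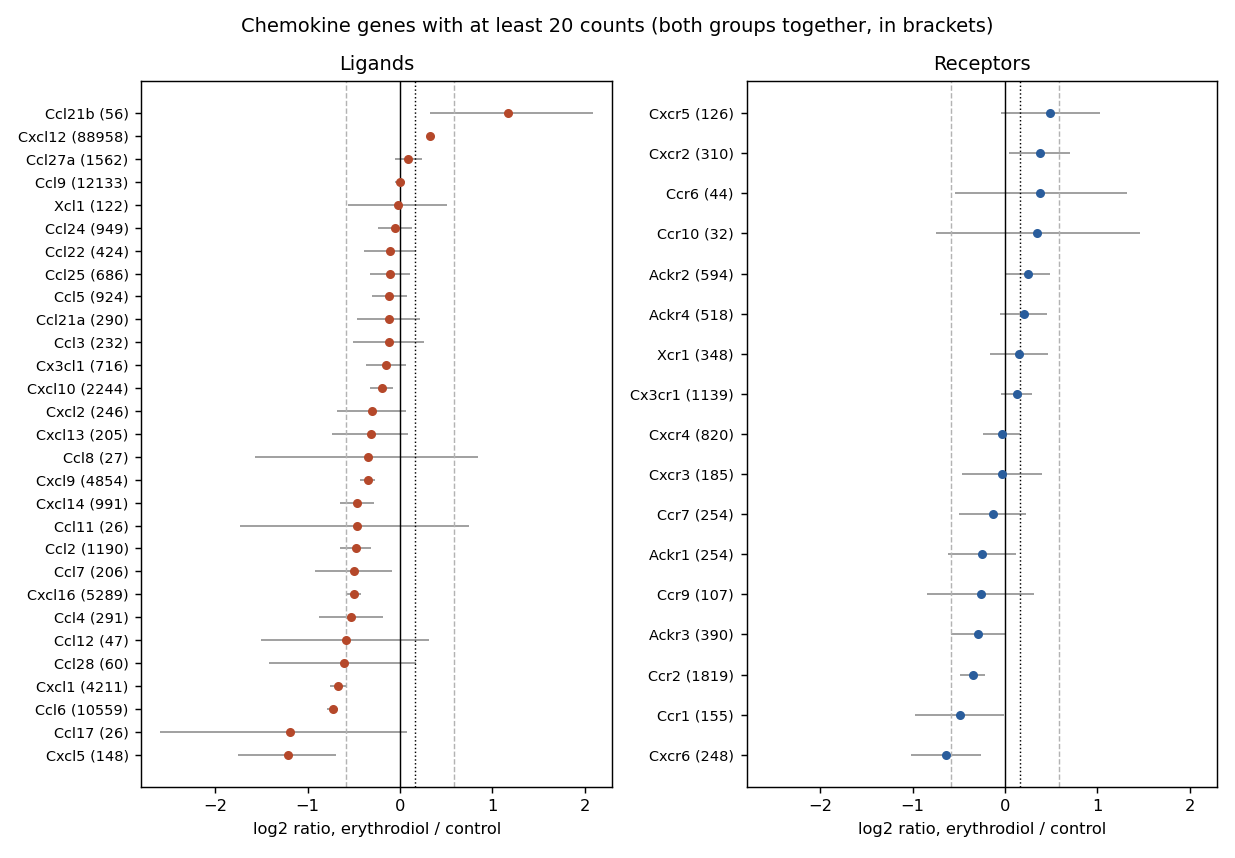
Each point is the log2 ratio of erythrodiol to control of a chemokine ligand (left) or receptor (right) with at least 20 counts, horizontal lines are 95% counting intervals, numbers in brackets are the counts of both groups together, the solid line marks a ratio of 1, the dotted line the median of all genes (0.16), and dashed lines a 1.5-fold difference. Of the ligands, 25 of 29 lie left of the solid line, and of the receptors 9 of 17, which became 17 and 6 when scaled by counts per length.

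Past a 1.5-fold difference in either direction lay 7 members, against 8.6% of all genes with at least 20 counts. The 6 that were lower were Cxcl5, Ccl17, Ccl6, Cxcl1, Ccl28 and Cxcr6, against 4.52% of all genes, and the interval lay wholly below 1 for 4 of them, Cxcl5, Ccl6, Cxcl1 and Cxcr6. The one that was higher was Ccl21b, against 4.08%. Without regard to the size of the difference, the counting interval lay below 1 in 13 members, 10 ligands and 3 receptors, against 16.4% of all genes. It lay above 1 in 4 members, Cxcl12, Ccl21b, Ackr2 and Cxcr2, against 49.5% of all genes. Past 2-fold stood 1 member that was higher, Ccl21b, against 0.821% of all genes, and 2 that were lower, Cxcl5 and Ccl17, against 1.24%.

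Members differed widely in abundance. Per length, the median ligand stood at 1.67 TPM in the control and the median receptor at 0.539. Cxcl12 stood at 197 TPM, which was 43.0% of the level of all described members together. The next ligands were Ccl6 at 61.0 and Cxcl1 at 35.6, and receptors stood lower, with Ccr2 at 3.76, Cxcr4 at 3.03 and Cx3cr1 at 2.03. Because the sums of counts per length differed between the groups, ratios of TPM are higher than ratios of counts by 0.15 on the log2 scale for every gene. Among all members, 11 had fewer than 20 counts over both groups, from 1 to 10, and no ratio is given for them.

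**Figure D2:**
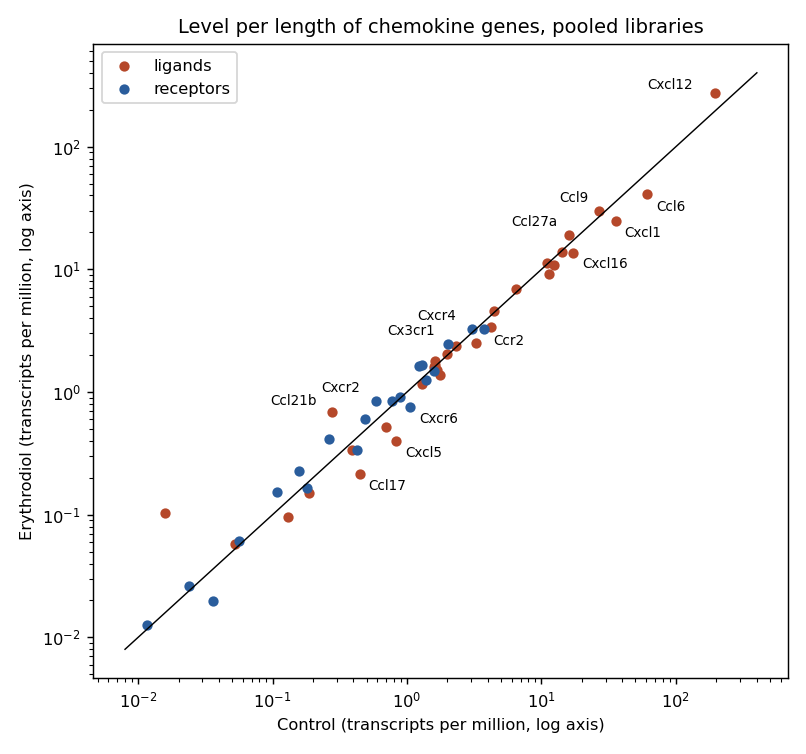
Each point is a chemokine ligand or receptor with counts in both groups, placed by its level in the control pool (x) and in the erythrodiol pool (y), both in TPM on log axes, and the line marks equal levels. Cxcl12 stands alone at the top, with 197 and 275 TPM, and the receptors drawn lie at or below 3.76 in the control.

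When counts were summed, ligands had 66251 in the control and 71452 with erythrodiol, a log2 ratio of 0.09 (0.07 to 0.10), while the described receptors had 3746 and 3626, a log2 ratio of -0.07 (-0.13 to -0.0017). The ligands therefore exceeded the receptors by 0.16 (0.09 to 0.22) on the log2 scale. That direction rested on Cxcl12, which held 59.0% of the ligand counts in the control and 69.8% with erythrodiol. Without Cxcl12 the ligands had 27144 counts in the control pool and 21601 in the erythrodiol pool, a log2 ratio of -0.35 (-0.38 to -0.32), and they stood below the receptors by a log2 difference of -0.28 (-0.35 to -0.21). The sum of all ligands also turned negative when scaled to the median gene (-0.07), by the upper quartile (-0.08) or to genes of like length (-0.03). The receptor sum turned positive without Ccr2 (0.02) and when scaled by counts per length (0.08).

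Cxcl12, on chromosome 6 of GRCm38 from 117168535 to 117181368, is a CXC chemokine made by stromal and endothelial cells that acts in homeostasis through Cxcr4. It had 39107 counts in the control pool and 49851 in the erythrodiol pool, 1.26 times the control (1.24 to 1.27). Relative to the median of all genes its log2 ratio was 0.17, and relative to genes of like length it was also 0.17, against 0.33 by totals. The receptors it binds had no such excess. Cxcr4, the signalling receptor, had 412 counts in the control pool and 408 in the erythrodiol pool, 0.976 times the control (0.849 to 1.12). Ackr3, which scavenges Cxcl12, had 213 and 177, 0.819 times the control (0.667 to 1.00). The log2 ratio of Cxcl12 exceeded that of the sum of Cxcr4 and Ackr3 by 0.45 (0.28 to 0.61).

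Cxcl1, Cxcl2, Cxcl3 and Cxcl5 are CXC ligands of Cxcr2 that attract neutrophils. Their genes lie together on chromosome 5 of GRCm38 between 90759298 and 90905938. Their sum was 2811 counts in the control pool and 1802 in the erythrodiol pool, a log2 ratio of -0.66 (-0.75 to -0.58). Cxcl1, from 90891245 to 90893121, had 2569 counts in the control pool and 1642 in the erythrodiol pool, 0.630 times the control (0.592 to 0.670). Cxcl5, from 90759298 to 90761625, had 103 and 45, 0.431 times the control (0.296 to 0.617), and held the lowest ratio of the 38 members with at least 100 counts. Cxcl2 was also lower, though its interval reached above 1. It had 135 counts in the control pool and 111 in the erythrodiol pool, 0.810 times the control (0.625 to 1.05). Cxcl3 had 4 counts in each group.

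The receptor of these ligands went the other way. Cxcr2, which is carried mainly by neutrophils, had 134 counts in the control pool and 176 in the erythrodiol pool, 1.30 times the control (1.03 to 1.63). Relative to the median of all genes its log2 ratio was 0.21, against 0.38 by totals. Its interval by totals began at 0.04 on the log2 scale, below that median (0.16). Cxcr1 had 4 counts in each group. The log2 ratio of the ligands was below that of the receptors by -1.03 (-1.37 to -0.68), the widest gap of any ligand and receptor pairing in which both sides had at least 20 counts. Neutrophil markers, a list of 11 genes all found in the table, summed to 2854 counts in the control pool and 1875 in the erythrodiol pool, a log2 ratio of -0.63 (-0.71 to -0.54). Of the 9 with at least 20 counts 7 lay below 1, against 31% of all genes, among them S100a8 with 411 and 183 counts, S100a9 with 702 and 329 and the granule protease gene Prtn3 with 367 and 41. In the paper's RT-qPCR of single mice Prtn3 was lower with erythrodiol, and its standard deviation among controls exceeded their mean. Csf3r, the receptor for granulocyte colony-stimulating factor, had 1156 and 1185 counts. None of the 11 was at 0 in a group. The part of neutrophil numbers in these values was not tested.

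Promoter sequences are shown for Cxcl1 and Cxcl2, neighbours on chromosome 5 with lower values, and for Ccl6 and Cxcl12, the abundant ligands that went in opposite directions. Each is the stretch of 250 bases before the transcription start in RefSeq on GRCm38.p6, read 5′ to 3′ on the strand of the gene. They lie at chr5:90890995-90891244 (plus strand), chr5:90903649-90903898 (plus), chr11:83593088-83593337 (minus) and chr6:117168285-117168534 (plus).
Cxcl1: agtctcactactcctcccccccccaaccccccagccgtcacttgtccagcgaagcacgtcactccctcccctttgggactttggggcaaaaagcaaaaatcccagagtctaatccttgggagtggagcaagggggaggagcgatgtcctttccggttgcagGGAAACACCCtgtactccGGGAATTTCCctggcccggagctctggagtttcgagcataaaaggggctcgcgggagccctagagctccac
Cxcl2: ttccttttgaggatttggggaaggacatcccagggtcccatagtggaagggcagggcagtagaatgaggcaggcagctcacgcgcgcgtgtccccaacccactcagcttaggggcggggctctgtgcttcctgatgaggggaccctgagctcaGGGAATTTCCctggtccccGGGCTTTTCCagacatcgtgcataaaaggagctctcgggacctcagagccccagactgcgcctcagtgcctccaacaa
Ccl6: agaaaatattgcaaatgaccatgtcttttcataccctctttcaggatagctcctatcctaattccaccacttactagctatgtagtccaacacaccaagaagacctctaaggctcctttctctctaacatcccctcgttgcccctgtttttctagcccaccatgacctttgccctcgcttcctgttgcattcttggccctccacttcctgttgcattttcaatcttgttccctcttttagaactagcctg
Cxcl12: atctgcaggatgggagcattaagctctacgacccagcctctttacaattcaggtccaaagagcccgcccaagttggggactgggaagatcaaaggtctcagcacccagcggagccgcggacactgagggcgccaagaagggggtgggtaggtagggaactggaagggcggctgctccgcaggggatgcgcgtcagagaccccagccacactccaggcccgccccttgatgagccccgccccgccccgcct
Capitals mark matches on either strand to GGG and TTTCC with any 2 bases between, a pattern of the type bound by NF-kB, a factor known to drive inflammatory chemokine genes. Cxcl1 held 2 matches, beginning 89 and 71 bases before the start, and Cxcl2 held 2, at 97 and 78 bases. Of the 45 members with a RefSeq promoter, 6 held a match (Ccl20, Ccl9, Ccr3, Cxcl1, Cxcl2 and Cxcl3), while 1.41% of 32851 promoters of the genome did. The units differ, since members are counted by gene, with 52 promoters among the 45, and the genome share is of single promoters. Neither Ccl6 nor Cxcl12 held a match to this pattern, to the STAT pattern TTC and GAA with any 3 bases between, to the interferon response pattern GAAA and GAAA with any 2 bases between or to the TATA box TATAAA within these 250 bases. Ccl9 held a match as well, 35 bases before its start, although its ratio was 1.00. Searched on both strands and counted in these same units, the STAT pattern was found in 4 members and 7.02% of promoters, the interferon response pattern in 3 members and 2.98%, and the TATA box in 14 members and 12.4%.

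Cxcl9 and Cxcl10 are induced by interferon gamma and draw in T and NK cells through Cxcr3. Their genes are neighbours on chromosome 5, between 92321331 and 92348889. Cxcl9 had 2700 counts in the control pool and 2154 in the erythrodiol pool, 0.786 times the control (0.743 to 0.832). Cxcl10 had 1191 and 1053, 0.871 times the control (0.801 to 0.948). Both intervals lay below 1 by totals. Cxcr3 had nearly equal counts, 93 in the control and 92 with erythrodiol, but its interval was wide (0.723 to 1.31 times the control), and the difference of ligands from receptor on the log2 scale was -0.26 (-0.70 to 0.17). Of the promoters of this pair, that of Cxcl10 held the interferon response pattern, 213 bases before the start.

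Cxcl16 is a membrane-anchored chemokine that also takes up oxidised lipoprotein, and it binds Cxcr6 on T and natural killer T cells. Both were lower with erythrodiol. Cxcl16, on chromosome 11 from 70454389 to 70459984, had 3081 counts in the control pool and 2208 in the erythrodiol pool, 0.706 times the control (0.668 to 0.746). Cxcr6, on chromosome 9 from 123806477 to 123811754, had 150 and 98, 0.644 times the control (0.494 to 0.836), the lowest ratio among the receptors with at least 20 counts. The log2 ratios of the ligand and of the receptor differed by 0.13 (-0.25 to 0.52), so that a difference between them was not detectable at this depth.

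The remaining CXC ligands were fewer in counts. Cxcl14, a chemokine of epithelia, had 571 counts in the control pool and 420 in the erythrodiol pool, 0.725 times the control (0.638 to 0.824). Cxcl13, which guides B cells through Cxcr5, had 113 and 92, 0.802 times the control (0.603 to 1.07). Its receptor had the higher value with erythrodiol instead. Cxcr5 had 52 counts in the control pool and 74 in the erythrodiol pool, 1.40 times the control (0.971 to 2.04), and the difference of Cxcl13 from Cxcr5 on the log2 scale was -0.81 (-1.49 to -0.12). Of the CXC ligands with at least 20 counts, 8 of 9 lay below 1 and their median log2 ratio was -0.35. B-cell markers, 7 of 7 of them in the table, summed to a log2 ratio of 0.03 (-0.08 to 0.13).

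Among the CC ligands, Ccl3, Ccl4, Ccl5, Ccl6 and Ccl9 lie together on chromosome 11 between 83525778 and 83664683 and summed to 13336 counts in the control pool and 10803 in the erythrodiol pool, a log2 ratio of -0.32 (-0.36 to -0.29). Ccl6 and Ccl9 are chemokines of mouse macrophages that bind Ccr1 and were the most abundant of them. They differed from each other. Ccl6, from 83587886 to 83593087, had 6547 counts in the control pool and 4012 in the erythrodiol pool, 0.604 times the control (0.581 to 0.628). Ccl9, its neighbour from 83572917 to 83578636, had 6021 and 6111, 1.00 times the control (0.965 to 1.04). Ccl3, Ccl4 and Ccl5, inflammatory chemokines released by activated macrophages and lymphocytes, lay below 1 by totals, though Ccl3 and Ccl5 lay above it when scaled by counts per length. Ccl4 had 171 and 120 counts, 0.692 times the control (0.543 to 0.879). Ccl5 had 477 and 447, 0.924 times (0.810 to 1.05). Ccl3 had 120 and 112, 0.920 times (0.705 to 1.20), and its gene overlaps that of Ccl4, so that reads may be shared between them.

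Ccr1, a receptor of Ccl3, Ccl5, Ccl6 and Ccl9 on macrophages and neutrophils, was lower too. It had 90 counts in the control pool and 65 in the erythrodiol pool, 0.712 times the control (0.509 to 0.990). Those 4 ligands summed to a log2 ratio of -0.32 (-0.36 to -0.29). Their difference from Ccr1 on the log2 scale was 0.17 (-0.31 to 0.65), which spans 0. Of the 4 only Ccl6 had an interval below 1. Ccl9 stood at 1.00 times the control and the intervals of Ccl3 and Ccl5 held 1, so the lower sum came mainly from Ccl6.

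Ccl2, Ccl7, Ccl8 and Ccl12 recruit monocytes from blood through Ccr2, and their genes form a cluster with Ccl11 and Ccl1 on chromosome 11 between 82035577 and 82179812. The cluster had 866 counts in the control pool and 631 in the erythrodiol pool, a log2 ratio of -0.48 (-0.63 to -0.33), and 5 of its 5 genes with at least 20 counts lay below 1. Ccl2, from 82035577 to 82037452, had 688 and 502, 0.719 times the control (0.640 to 0.808). Ccl7 had 120 and 86, 0.706 times (0.529 to 0.939). The genes of this cluster are mostly short, and the medians of their length classes, weighted by counts, averaged -0.30. Relative to genes of like length Ccl2 stood at -0.18 and Ccl7 at -0.20 on the log2 scale. Ccl12, Ccl8 and Ccl11 had from 11 to 28 counts in a group and intervals that reached above 1. Their receptor was lower as well. Ccr2, on chromosome 9 from 124101918 to 124109140, had 1013 and 806 counts, 0.784 times the control (0.714 to 0.861), and the difference of the 4 ligands from it on the log2 scale was -0.13 (-0.33 to 0.07).

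Ccr9, Cxcr6, Xcr1, Ccr1, Ccr1l1, Ccr3 and Ccr2 lie near each other on chromosome 9 between 123767211 and 124109140. They had 1481 counts in the control pool and 1205 in the erythrodiol pool, a log2 ratio of -0.32 (-0.43 to -0.21), and 4 of 5 genes with at least 20 counts lay below 1. The one above it was Xcr1, a receptor of dendritic cells that present antigen to cytotoxic T cells, with 163 and 184 counts, 1.11 times the control (0.896 to 1.38), although it lay at -0.01 on the log2 scale when scaled to the median gene. Its ligand Xcl1 had 61 counts in each group. Ccr9 had 58 and 49, and its ligand Ccl25 had 353 and 333, 0.930 times the control (0.798 to 1.08). These dendritic and lymphoid pairs had intervals that held 1.

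**Figure D3:**
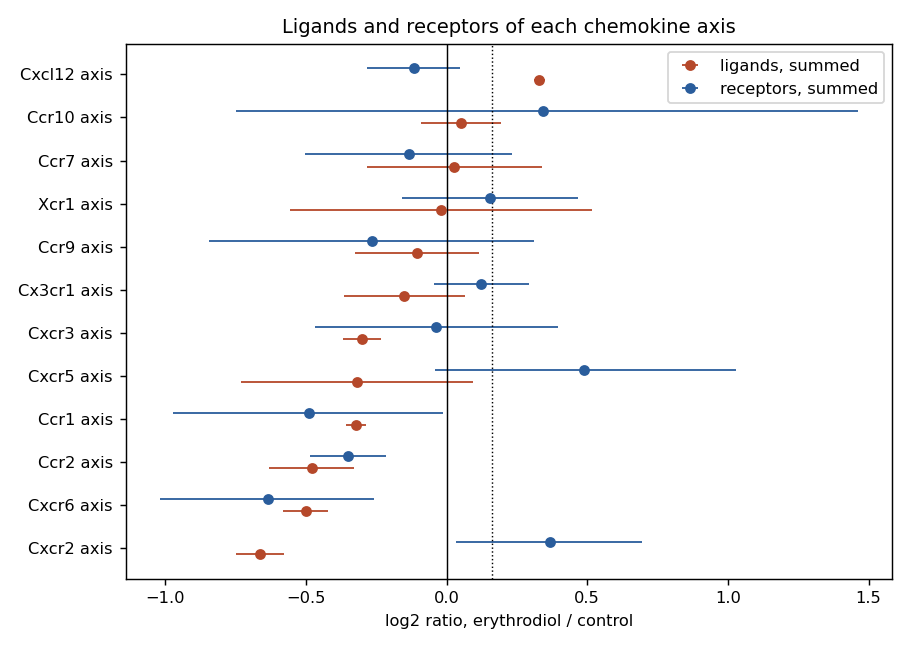
For each group of ligands and the receptors they bind, the points are the log2 ratios of erythrodiol to control of the summed ligand counts and of the summed receptor counts, with 95% counting intervals as horizontal lines, the solid line at a ratio of 1 and the dotted line at the median of all genes (0.16). The ligands grouped with Cxcr2 lie lowest (-0.66) and their receptors above 0 (0.37). Ligands and receptors of Cxcr6, Ccr2 and Ccr1 lie on the same side, below 0, for Ccr1 mainly through the ligand Ccl6.

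Kupffer cell markers were lower together with these genes. All 11 of 11 listed markers were in the table, none was at 0 and 11 had a ratio below 1, 6 of them past 1.5-fold. Of all genes, 31% lay below 1 and 4.52% were lower by 1.5-fold or more, and the counts of markers of other cells are to be read against the same shares. Their sum was 170614 counts in the control pool and 115116 in the erythrodiol pool, 0.665 times the control (0.660 to 0.670). Marco, a scavenger receptor of macrophages, had 6374 and 3086 counts, and Clec4f, a lectin particular to Kupffer cells, had 19293 and 12507. Of 11 markers of monocytes or other macrophages 9 lay below 1, 4 of them past 1.5-fold, among them Plac8 with 2187 and 1122 counts and Lyz2 with 34731 and 22896. Their sum had a log2 ratio of 0.20, and Fn1, which hepatocytes also express, held most of these counts, with 201945 and 258916. Markers of cholangiocytes, 6 of 6 below 1 with Sox9 nearest to it (log2 ratio -0.09), summed to a log2 ratio of -0.56. Spp1 held most of these counts, with 12503 and 8363. Krt19, Epcam and Cftr also had intervals below 1, while those of Krt7 and Sox9 held it. Markers of NK cells, 6 of 9 below 1, summed to -0.29 (-0.42 to -0.17). Those of T cells stood at 0.01, dendritic cells at -0.02, sinusoidal endothelial cells at 0.08, stellate cells or fibroblasts at -0.08 and hepatocytes at -0.01. Alb held most of the hepatocyte counts. Of the hepatocyte markers 6 of 8 lay above 1, with a median log2 ratio of 0.17, near that of all genes (0.15). The part of these cell types in the chemokine values was not tested.

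**Figure D4:**
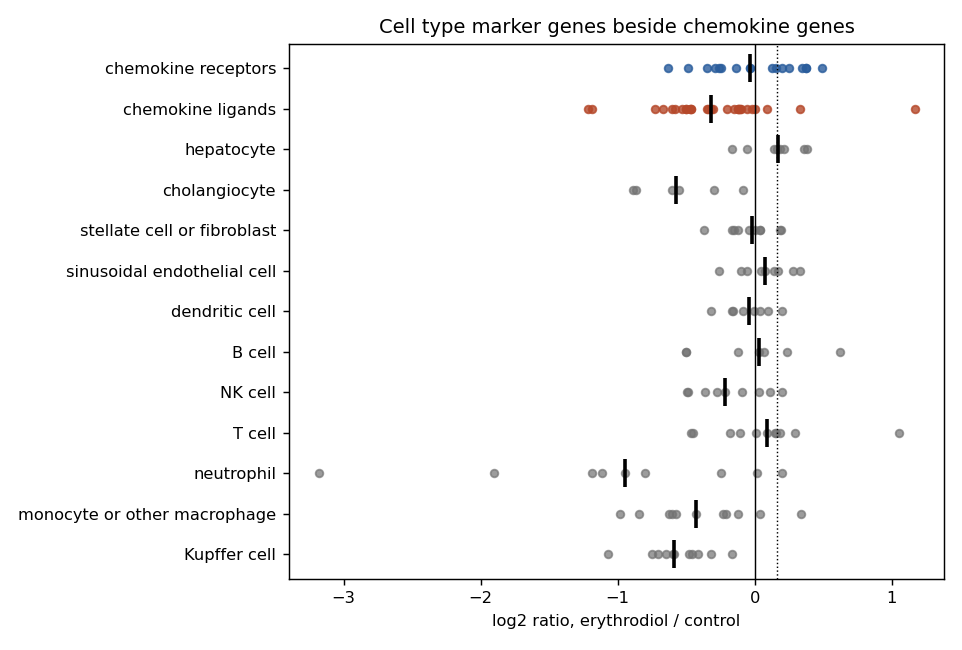
Each point is the log2 ratio of erythrodiol to control of a gene with at least 20 counts in a list of cell type markers (grey), among the chemokine ligands (red) or among the receptors (blue), thick bars are medians, the solid line marks a ratio of 1 and the dotted line the median of all genes (0.16). The 11 Kupffer cell markers all lie below 0, and the neutrophil list reaches from -3.18 (Prtn3) to 0.20 (Ly6g).

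The other receptors of monocytes and lymphocytes had intervals that held 1. Cx3cr1, which marks patrolling monocytes, had 541 counts in the control pool and 598 in the erythrodiol pool, 1.09 times the control (0.968 to 1.23). Its ligand Cx3cl1, anchored on endothelium, had 374 and 342, 0.901 times (0.776 to 1.05). The difference of ligand from receptor on the log2 scale was -0.27 (-0.55 to 0.00). Ccr7, the receptor that takes dendritic cells and T cells to lymph nodes, had 132 and 122 counts, 0.911 times the control (0.706 to 1.17). Ccr6, a receptor of B cells and some T cells, had 19 and 25 counts, 1.30 times (0.686 to 2.49), and Ccr10 had 14 and 18, 1.27 times (0.595 to 2.75), so that neither could be told from 1 at this depth.

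Atypical receptors stood above the typical ones, by a log2 difference of 0.15 between their sums, with an interval that reached 0 (-0.01 to 0.30). The 4 summed to 858 counts in the control pool and 898 in the erythrodiol pool, a log2 ratio of 0.04 (-0.09 to 0.18) that turned to -0.12 when scaled to the median gene, whereas the 18 typical receptors described summed to 2888 and 2728, -0.10 (-0.18 to -0.03), a value that ran from -0.27 to 0.05 over the scalings tried. Ackr2, which degrades inflammatory CC chemokines, had 269 and 325 counts, 1.19 times the control (1.01 to 1.40). Relative to the median of all genes its log2 ratio was 0.09, against 0.25 by totals. Ackr4, a scavenger of Ccl19, Ccl21 and Ccl25, had 239 and 279, 1.15 times (0.965 to 1.37). The other two lay below 1, Ackr3 as given above at 0.819 times (0.667 to 1.00) and Ackr1, which binds many chemokines on venules and red cells, with 137 and 117 counts at 0.842 times (0.652 to 1.09).

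The remaining ligands were those of homeostasis and of allergic inflammation. Ccl24, which attracts eosinophils through Ccr3, had 480 and 469 counts, a log2 ratio of -0.05 (-0.24 to 0.13). Ccl22 and Ccl17, the ligands of Ccr4, lie beside Cx3cl1 on chromosome 8. Ccl22 had 218 and 206 counts, 0.931 times the control (0.766 to 1.13). Ccl17 had 18 and 8, 0.438 times (0.165 to 1.06), a ratio past 2-fold that rests on 26 counts in all. Ccl28, a mucosal ligand of Ccr10, had 36 and 24, 0.657 times (0.375 to 1.13). For neither Ccl17 nor Ccl28 did the interval leave out 1. Receptors at the edge of detection were Ccr4 with 5 counts in each group, Ccr3 with 6 and 3, and Ccr8 with 1 in each.

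Ccl21b, the one member higher by 1.5-fold or more, is one of several near-identical copies of the lymphoid chemokines on chromosome 4, and reads may have been shared among them. It had 17.1 expected counts in the control pool and 39.0 in the erythrodiol pool, 2.25 times the control (1.25 to 4.26). Its copy Ccl21a had 150 and 140, 0.920 times (0.725 to 1.17). When the 6 copies that the table describes as Ccl21 were added up, they had 275 counts in the control pool and 277 in the erythrodiol pool, a log2 ratio of -0.01 (-0.26 to 0.24). The higher value of Ccl21b was not seen in the sum of its copies. Ccl27a had 751 and 811 counts, 1.06 times the control (0.963 to 1.18), and the 8 copies described as Ccl27 had a log2 ratio of 0.21 (0.09 to 0.32). Ccl19 had 6.14 counts in the control pool and 0 in the erythrodiol pool, too few for a ratio, and the 10 copies described as Ccl19 had 388 and 446, a log2 ratio of 0.18 (-0.02 to 0.38). Ccl27b likewise had 7.34 counts and 0, and its gene overlaps Ccl19-ps2 and Il11ra2.

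Ratios also varied with the length of the gene. Over all genes with at least 100 counts, the median log2 ratio went from -0.30 in the shortest of 20 length classes, up to 915 bases, to 0.35 in the longest. Spearman's correlation of the log2 ratio with length was 0.43 across the 13291 genes and 0.25 across the 38 members, given as descriptions because genes of a library share its RNA quality and depth. Chemokine ligands are short, with a median length of 995 bases, while the described receptors had 2146. Relative to genes of like length the median log2 ratio was -0.20 over ligands and -0.10 over receptors, so that the distance between the classes was less than without that reference. Below the median of their length class lay 21 of 29 ligands and 11 of 17 receptors. By construction, genes with at least 100 counts lie as often below the median of their class as above it. The receptor count is not far from such an even split. Among members with at least 100 counts, Cxcl5, Ccl6 and Cxcr6 stood furthest below their class median, by log2 values of -1.29, -0.77 and -0.74. The part of RNA quality in these values was not tested.

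**Figure D5:**
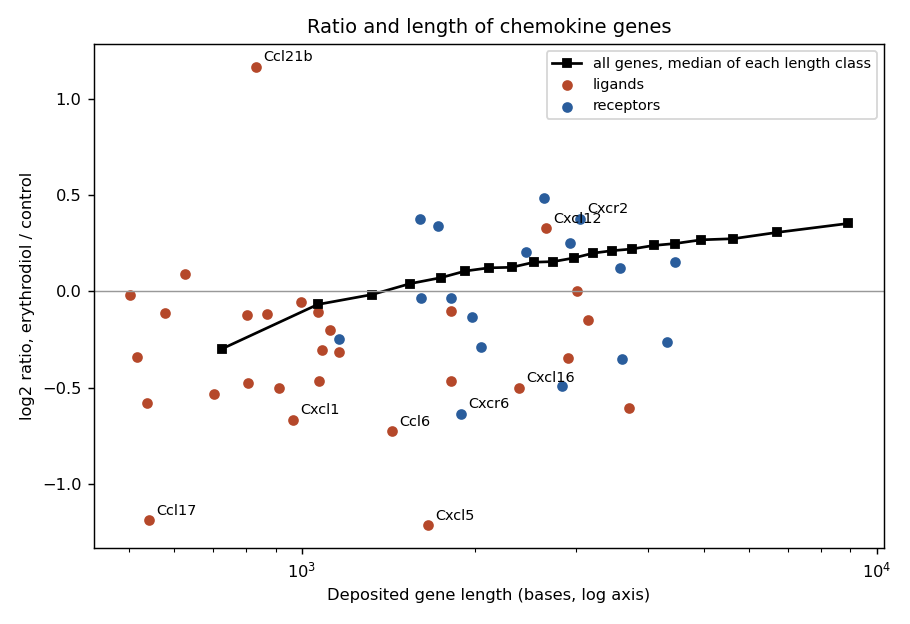
Each point is a chemokine ligand or receptor with at least 20 counts, placed by its deposited length in bases (x, log axis) and its log2 ratio of erythrodiol to control (y), and squares joined by a line are the medians of all genes in 20 length classes. The line runs from -0.30 to 0.35, and 32 of the 46 points lie below the median of their class, which by construction splits the genes that define it evenly.

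Genes related to chemokine action that the symbols do not capture were looked at from a list. Of 7, 3 were lower by 1.5-fold or more, against 4.52% of all genes, and 0 higher, against 4.08%. Ppbp, a CXC chemokine of platelets, had 154 counts in the control pool and 77 in the erythrodiol pool, 0.493 times the control (0.370 to 0.652). Pf4, its neighbour in platelets, had 139 and 88, and Cklf had 144 and 87. Rarres2, which encodes chemerin and is abundant in hepatocytes, had 52773 and 41314, 0.772 times (0.762 to 0.782). Downstream of the receptors, 38 of 39 listed transducers were found, and 2 of them were lower by 1.5-fold or more and 0 higher, a share near the 4.52% lower among all genes. Those were Rgs1, with 380 and 230 counts, and Rgs18, with 40 and 19, both of which encode proteins that shorten G protein signals. The median log2 ratio of the transducers was -0.04, with 23 of 38 below 1, and the G protein subunit gene Gnai2 had 17130 and 19158 counts, a log2 ratio of 0.14 (0.11 to 0.17).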

How the data were processed

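Liver RNA of 14 pools, 7 per group by the labels, was sequenced in paired-end mode by the authors. The authors mapped clean reads with Bowtie2 to reference transcripts joined with newly assembled ones and estimated expected counts with RSEM, and deposited them as 1 expected count per gene and group, summed over libraries and not normalized. They also deposited counts of clean reads and the percent mapped to genes for each library. The submitters' processing notes further name HISAT, StringTie, Cufflinks and GATK, with versions not given in the sources used here. The authors' own log2 ratios, p-values and q-values were deposited beside the counts and not used.

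Each group was scaled by its total. Clopper-Pearson intervals at 95% used counts rounded to whole numbers, and cover counting error only. Levels per length are counts divided by the deposited length, scaled to a sum of 1000000 (TPM). Genes that reached 20 counts over both groups were counted as different past 1.5-fold. Length classes, 20 of them, used genes reaching 100 counts. Coordinates were taken from RefSeq on GRCm38 and promoters from RefSeq on GRCm38.p6. Strandedness of the counting is not given in the sources used here, and 22 of the 57 described members overlap another gene. Named genes were the members with at least 100 counts, those past 1.5-fold, the 3 most abundant ligands and receptors per length, and fixed lists, and members named with fewer counts, the gene clusters, the ligand and receptor groupings and the motifs were chosen with their values in view. 1 member is not reported here and was left out of every sum and count over members. The members and lists were chosen with earlier results of these data known. The computation was tested on simulated data. Intervals came from scipy 1.17.1 and figures from matplotlib 3.10.9, with numpy 2.4.6 and pandas 2.3.3 under Python 3.11.15. A list of the chemokine signalling pathway was not built, as the table used carries no such annotation.

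Alternatives were other scalings, other count and fold limits, a pseudocount of 1, and members left out. Scaling by counts per length, leaving out the 5 most abundant ligands and adding all copies of Ccl19, Ccl21 and Ccl27 were chosen after seeing the data.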

Additional observations from a re-analysis of the deposited data

Results flagged for a closer look

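The share of clean reads mapped to genes was 64.3% in control replicate 3, whose distance to the nearest library of its group was 0.588 of the range of the group, and the other control libraries lay between 74.4% and 81.4%. For a single quantity fixed beforehand and values of normal spread, such a distance is met by chance in about 1 in 20 groups. That library gave 9.12% of the control pool. Chemokine genes could not be given without it, since they have 1 pooled value per group.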

How the results depend on the processing

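No paired analysis was possible because genes have 1 pooled value per group, and for the same reason neither edgeR, DESeq2 nor leaving out libraries was run. Of 63 recomputed values, 38 were labelled the same, 15 moved and 10 reversed in sign. That label did not always mean a close value. It covered a ligand median of -0.48 when scaled to the median gene and -0.17 by counts per length, against -0.32 as reported. It also covered a receptor median of -0.20 when scaled to the median gene, against -0.04 as reported. The ligand sum, 0.09 on the log2 scale as reported, was -0.074 when scaled to the median gene, -0.079 by the upper quartile, -0.028 relative to genes of like length, -0.35 without Cxcl12, -0.33 without the 5 most abundant and 0.24 scaled by counts per length. The receptor sum, -0.068, was -0.23 when scaled to the median gene, by the upper quartile or relative to genes of like length, 0.024 without Ccr2 and 0.084 scaled by counts per length, a setting that put the receptor median, -0.04 as reported, at 0.12. The difference of ligands from receptors, 0.16, was -0.37 without the most abundant described member of each class and -0.26 without the 5 most abundant ligands. Members lower by 1.5-fold, 6 as reported, were 14 when scaled to the median gene or by the upper quartile, 11 with no minimum and a pseudocount of 1, 2 past 2-fold, 2 scaled by counts per length and 13 by the interval alone. Members higher, 1 as reported, were 0 without the copies of Ccl19, Ccl21 and Ccl27, 0 at a minimum of 100 counts, 3 with no minimum and a pseudocount of 1, 2 scaled by counts per length and 4 by the interval alone. Of all genes, 4.52% were lower as reported, 1.24% past 2-fold and 16.4% by the interval alone. Higher were 4.08% as reported and 49.5% by the interval alone. For the other settings no share of all genes is given, so those counts are not read as results about the members. Where no value beside them shows it, the cause of the shifts between settings was not tested. Pooled values limit every ratio to counting error, and for members under 100 counts that error alone was wide.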

Other observations

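Of the 13439 coding transcript models that the authors assembled beyond the reference, 6 carry the name of 5 members, Ccl25, Ccl27a, Ccr2, Cxcl1 and Cxcl16. The model named for Cxcl16 lies on a scaffold outside the assembled chromosomes, not at the locus on chromosome 11. The model in Cxcl1, on chromosome 5 from 90891245 to 90893121, has 2 exons, the longer of 1652 bases, and 0 of them matched an annotated exon. Ccr2 has a model of 4 exons and Ccl25 one of 7, while Ccl27a has 2 models, of 6 and 5 exons. None of the 16 splicing events deposited as differing between the groups lies in a member. The files give no count per model, so their levels in either group were not analysed here.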
